A study of Homo sapiens with 6 samples.

Results

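The genes described here encode the pore-forming and auxiliary subunits of voltage-gated calcium and sodium channels. They were taken by symbol alone: every gene whose symbol starts with CACNA1, CACNA2D, CACNB or CACNG, or consists of SCN, a number and A or B. Symbols with a hyphen and the epithelial SCNN genes were left out. The rule found 40 of the 35793 genes listed. Of these, 38 are described here, 26 of them calcium channel genes and 12 sodium channel genes. RNA was sequenced from cardiomyocytes differentiated from WTC11, an established human induced pluripotent stem cell line. The wild-type group was unedited WTC11, and the knockout group came from a WTC11 derivative with both copies of STK25 disrupted by CRISPR/Cas9. STK25 is a serine/threonine kinase. Both groups were collected at day 15 with no treatment, and each had 3 biological replicates (6 libraries). The labels named 1 knockout line and no batch, so the edit and any other difference between the 2 lines cannot be told apart. The labels did not say whether the replicates were separate differentiations, and p-values measure the spread between these samples.

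Voltage-gated channels open when the membrane depolarises. In cardiomyocytes sodium channels carry the fast upstroke of the action potential, and the L-type calcium channel CACNA1C carries the calcium current that triggers contraction. T-type calcium channels (CACNA1G, CACNA1H) open at more negative potentials and are known from pacemaker cells and the embryonic heart. Calcium channel beta and alpha2delta subunits bring the pore to the membrane and tune its gating, and sodium channel beta subunits are single-span membrane proteins that modulate the sodium pore.

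Values are the authors' normalized counts, which were whole reads divided by 1 factor per library. The libraries held from 22443904 to 53224112 reads assigned to genes, and 3 reads corresponded to between 1.91 and 4.53 normalized counts. STK25, the targeted gene, had 8874, 6774 and 8710 normalized counts in wild-type replicates 1 to 3 and 3906, 3434 and 3820 in knockout replicates 1 to 3. It averaged 8119 ± 1168 in the wild type and 3720 ± 251 in the knockout (SD, n = 3 each), so it fell by 1.12 on the log2 scale (limma, Benjamini-Hochberg adjusted p = 0.00903). The knockout kept 45.8% of the wild-type level, and leaving out wild-type replicate 1 gave an adjusted p of 0.0609. All 9 cardiomyocyte markers had reads in both genotypes, and their summed level was 848727 to 886875 in the wild type and 983703 to 1033366 in the knockout. Groups stood apart for 6 of them, with 4 higher and 2 lower in the knockout, beside 33.4% of all genes tested (16.2% higher and 17.2% lower). Of the 9, limma called PLN alone, lower (log2 change -0.76, adjusted p = 0.0459). Among all genes tested limma called 12.8% (5.97% higher and 6.79% lower), the share to set beside the calls of every marker list. The summed level of 5 smooth muscle markers was 79383 to 89832 in the wild type and 491950 to 539638 in the knockout, and all 5 rose, ACTA2 by 2.98 and TAGLN by 2.21 on the log2 scale. Of 7 fibroblast markers 2 rose and 1 fell, and all 7 had an unadjusted limma p under 0.05, beside 27.5% of all genes tested. Their sum was 12893 to 26523 in the wild type and 7662 to 16208 in the knockout. Of 5 epithelial markers 2 rose and 1 fell, 3 had such a p, and their sum was 125039 to 132756 in the wild type and 281827 to 313383 in the knockout. Of 4 tested pluripotent cell markers 1 rose and 2 had such a p. All 5 listed summed to 329 to 422 in the wild type and 595 to 652 in the knockout. For endothelium limma called 0 of 4 tested, with 1 at such a p, and all 5 listed summed to 173 to 477 and 418 to 584. Among all markers called, those not called in every fit that left out a library were PLN, CNN1 (smooth muscle), KRT8 (epithelium) and ACTA1 (skeletal muscle), each called in 1 of 6, SMTN (smooth muscle) and DCN (fibroblasts) in 2, COL3A1 (fibroblasts) in 3 and VSNL1 (pacemaker cells) in 5. CNN1, SMTN and KRT8 were also not called with equal totals (limma adjusted p = 0.109, 0.119 and 0.0692).

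Of the 38 channel genes, 24 reached an average of 10 normalized counts, the minimum for testing, as did 15536 genes in all. Of the 14 that did not, 4 had no read in any library and the other 10 had at most 34 reads in any one. CACNA1S rose in the knockout, and CACNA1G and SCN2B fell (limma, adjusted p under 0.05 over all genes tested). These 3 were 12.5% of the 24 tested channel genes, beside 12.8% called among all genes tested, so the share of channel genes called was near the background. By direction, 1 of 24 rose beside 5.97% of all genes, and 2 of 24 fell beside 6.79%. The median log2 fold change of the 24 was 0.31, beside 0.0052 for all genes, and it was 0.049 without knockout replicate 1. The 3 values of one genotype lay wholly above those of the other for 10 of the 24 (41.7%), beside 33.4% of all genes. edgeR's quasi-likelihood test, run on reads recovered from the table, called the same 3 genes, beside 12.0% of all genes (5.57% higher and 6.42% lower).

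**Figure D1:**
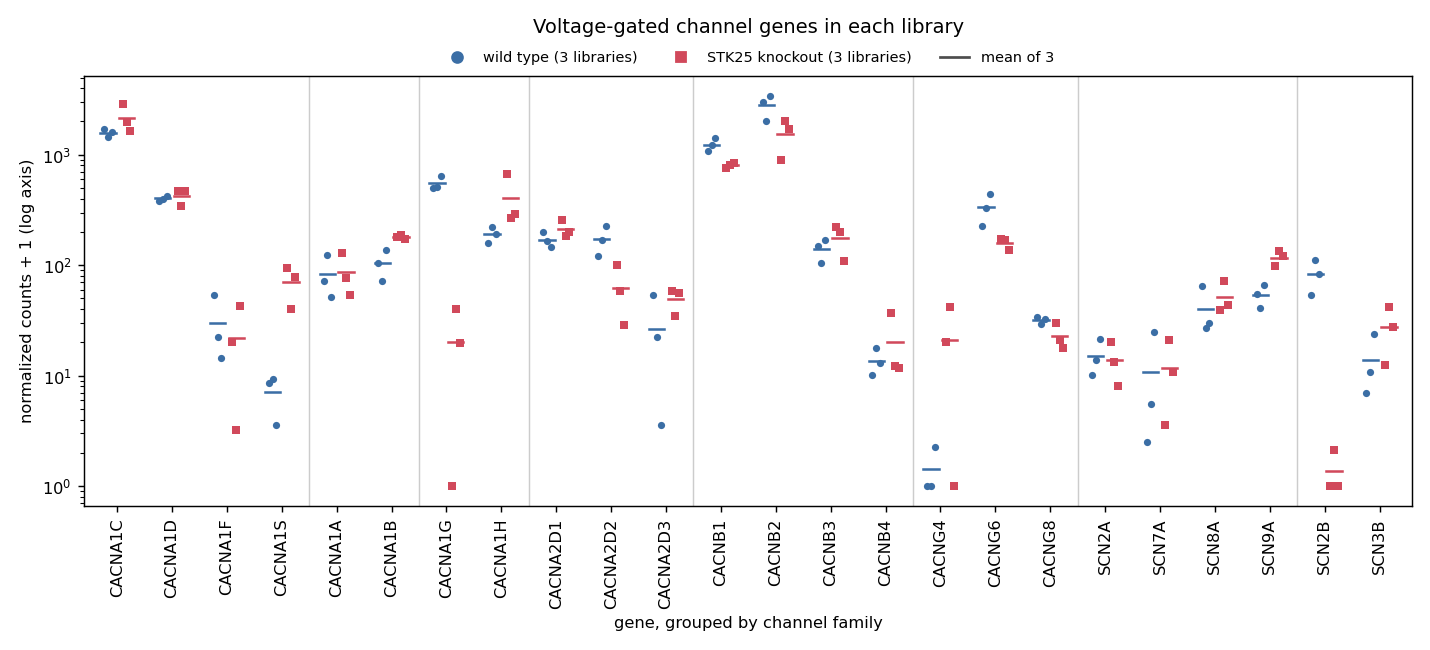
Normalized counts plus 1 on a log axis for the 24 tested channel genes, grouped by family, with 3 wild-type libraries (circles), 3 knockout libraries (squares) and the mean of each genotype (line). CACNA1G and SCN2B lie lower in every knockout library, and CACNA1S lies higher. In CACNA1C and CACNA1D the libraries of both genotypes overlap. CACNB2 also lies lower in every knockout library, with replicate 2 of each genotype almost equal.

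**Figure D2:**
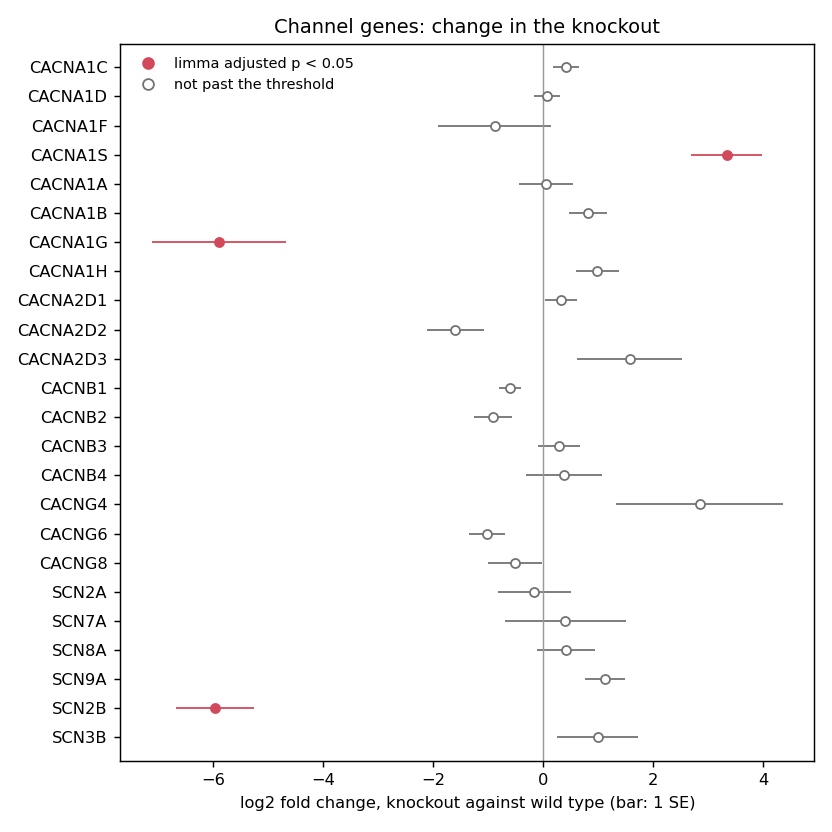
Log2 fold change of the 24 tested channel genes, knockout against wild type, with 1 SE from limma. Filled points are the 3 genes with an adjusted p under 0.05: CACNA1S to the right of 0, and CACNA1G and SCN2B to the left.

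Of the 4 L-type pore genes, the skeletal muscle gene CACNA1S rose, and the cardiac gene CACNA1C held most of the family's level in both genotypes. CACNA1C, the L-type pore of ventricular and atrial muscle, had 1693, 1449 and 1600 normalized counts in wild-type replicates 1 to 3 and 2855, 1985 and 1655 in knockout replicates 1 to 3. Knockout replicate 1 was the highest and the groups overlapped. Its log2 change was 0.42 (SE 0.24, limma adjusted p = 0.311). CACNA1D, the L-type channel of pacemaker and atrial cells, was at 402 ± 21.4 in the wild type and 426 ± 71.0 in the knockout (SD, n = 3 each; limma adjusted p = 0.890), and its estimate changed sign with equal totals. CACNA1F, known from the retina, was low and variable, at 13.4 to 52.9 in the wild type and 2.23 to 41.8 in the knockout.

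CACNA1S, the voltage sensor of excitation-contraction coupling in skeletal muscle, had 7.55, 8.38 and 2.55 normalized counts in the wild type and 94.1, 39.0 and 77.3 in the knockout. All 3 knockout libraries were above all 3 wild-type libraries, on 35 to 87 reads against 4 to 11. Its log2 change was 3.34 (SE 0.65, limma adjusted p = 0.0148), and the fit without knockout replicate 3 gave 0.0705. CACNA1S made up 5.04% ± 1.61 of the summed L-type level per kilobase in the knockout and 0.60% ± 0.32 in the wild type (SD, n = 3 each). CACNA1C held 69.9% ± 1.12 of that sum in the wild type and 71.7% ± 7.33 in the knockout, and CACNA1D held 26.7% ± 2.49 and 21.7% ± 4.48. Among 7 skeletal muscle markers, CKM (log2 fold change 2.09, limma adjusted p = 0.000887) and MYH3 (5.09, limma adjusted p = 0.000449) rose and ACTA1 fell (-0.91, limma adjusted p = 0.0317). Their summed level was 36220 to 40191 in the wild type and 114608 to 118137 in the knockout. MYOD1 and PAX7, which define the skeletal muscle lineage, had 0 reads in all 6 libraries, and MYOG averaged 5.08 and 3.44 normalized counts in the wild type and the knockout. The part of the other markers in the CACNA1S result was not tested.

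The T-type pair differed in make-up between genotypes, with CACNA1G the main gene in the wild type and CACNA1H in the knockout. The third pore loop is shown because it separates T-type from L-type genes while the members of each pair stay alike. In that loop a single codon of the selectivity filter, in capitals below, encodes glutamate in the high-voltage channels and aspartate in the T-type channels. The stretches are 45 coding bases of the longest reading frame of each gene in GENCODE 29 transcripts, 5′ to 3′.
CACNA1C: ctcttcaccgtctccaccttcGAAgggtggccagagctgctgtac
CACNA1S: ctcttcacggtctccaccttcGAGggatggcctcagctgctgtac
CACNA1G: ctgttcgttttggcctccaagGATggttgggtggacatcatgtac
CACNA1H: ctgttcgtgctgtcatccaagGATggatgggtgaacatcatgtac
CACNA1G and CACNA1H shared 39 of these 45 bases, CACNA1C and CACNA1S shared 40, and CACNA1C and CACNA1G shared 25.

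CACNA1G, the T-type channel of the embryonic heart and of pacemaker cells, fell in the knockout. It had 500, 508 and 646 normalized counts in the wild type (331, 667 and 1012 reads) and 0, 39.0 and 18.7 in the knockout (0, 35 and 21 reads). No knockout library came near the wild-type range, and knockout replicate 1 had no read. The knockout mean was 3.49% of the wild-type mean, and its log2 change was -5.89 (SE 1.22, limma adjusted p = 0.0193). Without wild-type replicate 1, 2 or 3 the adjusted p was 0.0767, 0.0533 or 0.0730, and with a pseudocount of 0.1 it was 0.0651. The log2 change ranged from -6.95 to -4.29 over the 6 fits that each dropped 1 library.

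CACNA1H, the other T-type gene with reads, had 157, 220 and 192 normalized counts in the wild type and 667, 269 and 290 in the knockout. The knockout libraries were all higher, with replicate 1 well above the other 2, and the log2 fold change of 0.99 (SE 0.39) was not past the threshold (limma adjusted p = 0.152). CACNA1I, the third T-type gene, had 0 reads in every library. Per kilobase, CACNA1G exceeded CACNA1H by a ratio of 2.98 ± 0.57 in the wild type, and in the knockout the ratio was 0.070 ± 0.073 (SD, n = 3 each). CACNA1H went from 25.5% ± 3.95 of the summed T-type level to 93.7% ± 6.39. The summed T-type level was 80.6 to 103 normalized counts per kilobase in the wild type and 37.5 to 81.3 in the knockout, with overlap between knockout replicate 1 and the wild type.

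Pacemaker cell markers moved both ways beside CACNA1G, which is a channel of such cells. ISL1 rose (log2 fold change 3.82, limma adjusted p = 0.000225), and VSNL1 fell (-2.27, limma adjusted p = 0.0123). The summed level of the 6 markers was 3228 to 3706 in the wild type and 8960 to 10962 in the knockout. Without ISL1 the sum of the other 5 was 2446 to 3265 in the wild type and 2101 to 2339 in the knockout, lower in every knockout library. Single markers did not all follow that sum. Of the 5 tested, ISL1 among them, 3 lay higher and 2 lower in every knockout library, beside 16.2% and 17.2% of all genes. None of the 6 was at 0 throughout a genotype. Their part in the CACNA1G result was not tested.

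The genes of P/Q, N and R-type channels, which serve transmitter release in neurons, were low. CACNA1B (N-type) had 104, 71.6 and 137 normalized counts in the wild type and 178, 187 and 171 in the knockout. The groups did not overlap, and the log2 fold change of 0.82 (SE 0.34) was not past the threshold (limma adjusted p = 0.165). CACNA1A (P/Q-type) was at 51.0 to 123 in the wild type and 52.4 to 127 in the knockout, and its estimate of 0.06 turned negative with equal totals. CACNA1E (R-type) had at most 2 reads in any library.

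Of the 10 auxiliary calcium channel genes tested, limma and edgeR called 0, with 4 at an unadjusted p under 0.05 in limma, beside 27.5% of all genes. DESeq2 called CACNB1, CACNA2D2 and CACNG6 lower, beside 10.7% of all genes called lower with it. The genes CACNB1, CACNB2, CACNA2D2 and CACNG6 had all 3 knockout libraries below the wild type, beside 17.2% of all genes. CACNB2, the main cardiac beta subunit, had 3012, 2032 and 3403 normalized counts in the wild type and 895, 2027 and 1703 in the knockout. Wild-type replicate 2 and knockout replicate 2 were almost equal, and the log2 fold change of -0.92 (SE 0.35) was not past the threshold (limma adjusted p = 0.131). CACNB1, the beta subunit of skeletal muscle that is also made in the heart, had 1069, 1219 and 1406 in the wild type and 758, 814 and 844 in the knockout. The groups stood apart with little spread, at a log2 fold change of -0.60 (SE 0.20, limma adjusted p = 0.0912). CACNB3 was at 140 ± 32.9 and 176 ± 58.9, and CACNB4 at 12.6 ± 3.87 and 19.1 ± 14.3 (wild type and knockout; SD, n = 3 each). The summed beta level per kilobase was 4.43 ± 0.73 times the summed L-type level in the wild type and 2.18 ± 0.83 times in the knockout (SD, n = 3 each), with no overlap between genotypes. The beta sum itself was 747 ± 142 and 460 ± 98.4 normalized counts per kilobase, and the L-type sum 168 ± 10.6 and 223 ± 51.4.

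CACNA2D2 had 119, 168 and 226 normalized counts in the wild type and 99.1, 58.0 and 27.6 in the knockout. The groups did not overlap, and the log2 change was -1.59 (SE 0.52, limma adjusted p = 0.0893). It passed without knockout replicate 1, at -2.02 (limma adjusted p = 0.0328), and with equal totals. CACNA2D1, the alpha2delta subunit of the ventricular L-type channel and a target of gabapentin, was at 170 ± 27.4 and 213 ± 37.7, and CACNA2D3 at 25.6 ± 25.4 and 48.6 ± 13.2 (wild type and knockout; SD, n = 3 each). The share of CACNA2D1 in the summed alpha2delta level per kilobase was 36.8% ± 5.41 in the wild type and 53.4% ± 3.26 in the knockout, and that of CACNA2D2 51.4% ± 16.2 and 20.3% ± 8.48. The order of these genes in the wild type depends on the length used. The longest transcript has 7563 bases for CACNA2D1 and 5476 for CACNA2D2, and the mean transcript has 1470 and 4200. With the mean length the CACNA2D1 share still rose, by 11.2 percentage points. CACNA2D4 had at most 5 reads in any library.

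CACNG6, a gamma subunit expressed in striated muscle, had 227, 331 and 441 normalized counts in the wild type and 173, 169 and 136 in the knockout. The log2 fold change of -1.01 (SE 0.32) was not past the threshold (limma adjusted p = 0.0840), and it passed with equal totals. CACNG8, known as a regulator of AMPA receptors in the brain, was at 28.2 to 33.2 in the wild type and 16.9 to 29.2 in the knockout. CACNG4 had 0, 0 and 2 reads in the wild type and 15, 37 and 0 in the knockout, so the groups overlapped at 0. CACNG1, the gamma subunit of the skeletal muscle channel, CACNG5 and CACNG7 had 0 reads in all 6 libraries. A count of 0 allows up to 3 reads, or 1.91 to 4.53 normalized counts in these libraries.

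**Figure D3:**
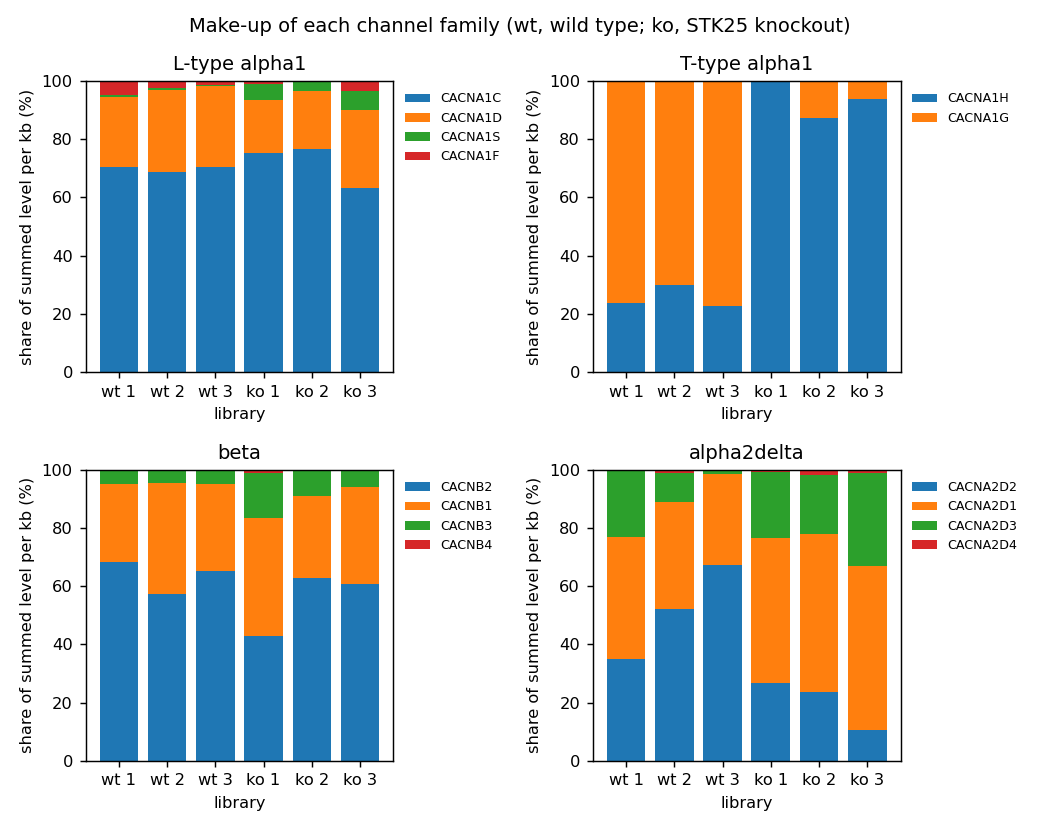
Share of each gene in the summed level per kilobase of its family, in percent, for 4 calcium channel families in wild-type (wt) and knockout (ko) libraries, with genes at 0 in all libraries left out. CACNA1G holds 70.0% to 77.2% of the T-type sum in the wild type and 0 to 12.8% in the knockout.

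Sodium channel alpha genes differ at a codon in the first pore loop that is known to set block by tetrodotoxin. Channels with tyrosine or phenylalanine there are sensitive, and those with serine are resistant. That codon is in capitals in these 45 coding bases, shown for 3 tested genes with tyrosine (SCN9A, SCN8A) or phenylalanine (SCN2A).
SCN9A: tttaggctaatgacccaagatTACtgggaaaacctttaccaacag
SCN8A: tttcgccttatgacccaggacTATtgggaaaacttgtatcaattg
SCN2A: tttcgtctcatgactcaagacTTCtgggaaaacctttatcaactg
SCN8A and SCN9A shared 34 of these 45 bases, SCN2A and SCN9A shared 37, and SCN2A and SCN8A shared 36. SCN1A, SCN3A and SCN4A also had tyrosine or phenylalanine codons at this position, SCN10A and SCN11A had serine, and SCN7A held no match to the loop.

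SCN9A, the tetrodotoxin-sensitive channel known from sensory neurons, had 54.4, 40.4 and 65.1 normalized counts in the wild type and 96.6, 133 and 120 in the knockout. Every knockout library was higher, at a log2 fold change of 1.13 (SE 0.37) that was not past the threshold (limma adjusted p = 0.0878). It passed with DESeq2 (adjusted p = 0.0242) and with limma without trend (adjusted p = 0.0465). SCN8A, a channel of axon initial segments, was at 25.9 to 63.4 in the wild type and 38.1 to 71.3 in the knockout. SCN2A was at 9.06 to 20.4 and 7.11 to 19.1, and SCN7A, a sodium-sensing relative, at 1.51 to 23.6 and 2.54 to 20.1. SCN1A, SCN3A, SCN4A (skeletal muscle), SCN10A and SCN11A (sensory neurons) were under the filter, with at most 10, 7, 15, 34 and 9 reads in any library. The 34 reads of SCN10A came from wild-type replicate 3, and its knockout libraries had none.

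Genes with the tyrosine or phenylalanine codon (6 genes) had a summed level of 15.4, 9.52 and 11.3 normalized counts per kilobase in the wild type and 15.0, 22.2 and 18.3 in the knockout. Wild-type replicate 1 lay within the knockout range, so the genotypes overlapped. The 2 serine genes summed to 0.931 to 3.86 normalized counts per kilobase in the wild type and 0 to 1.76 in the knockout. This grouping by codon was made after the values were seen and has no test. Among 9 neuronal markers TUBB3 rose (log2 fold change 2.99, limma adjusted p = 0.00997), and their summed level was 441 to 545 in the wild type and 873 to 1083 in the knockout. Without TUBB3 the other 8 summed to 415 to 443 in the wild type and 493 to 555 in the knockout. The other 5 that were tested were not called by limma. Of the 6 tested, 2 lay higher and 0 lower in every knockout library, beside 16.2% and 17.2% of all genes. DCX, which was not tested, lay lower in every knockout library. The part of the neuronal markers in the SCN9A and CACNA1B values was not tested. In bulk RNA, fewer cells of a type and less RNA per cell cannot be told apart.

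SCN2B, a beta subunit that is disulfide-linked to the alpha subunit, was the channel gene with the lowest adjusted p. It had 52.9, 111 and 82.9 normalized counts in the wild type (35, 146 and 130 reads) and 0, 1 and 0 reads in the knockout. Since every knockout library was at or under 3 reads, only a bound was computed, and SCN2B was at least 25.1-fold lower against a floor of 3 reads per library. The test gave an adjusted p of 0.00214 (limma), and it passed whichever of the 6 libraries was dropped, with adjusted p-values up to 0.0201. SCN4B, also a disulfide-linked subunit, had 4, 0 and 4 reads in the wild type and none in the knockout, which is under what these depths can separate. SCN3B, which binds without a disulfide bond, was at 6.04 to 23.0 in the wild type and 11.4 to 41.2 in the knockout, with overlap (limma adjusted p = 0.441).

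The share of the gene with the highest mean share over all 6 libraries was compared between genotypes in 6 calcium channel families with an exact two-sided permutation test over samples, for which 3 against 3 cannot go below p = 0.1. CACNA1H in the T-type family and CACNA2D1 in the alpha2delta family reached that value (0.3 after Benjamini-Hochberg adjustment over 6). The differences, knockout minus wild type, were 68.2 and 16.6 percentage points. With the mean transcript length in place of the longest they were 63.7 and 11.2. The other 4, CACNA1C, CACNA1B, CACNB2 and CACNG6, had exact p-values from 0.3 to 0.8.

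Levels per kilobase of the longest transcript put CACNB2 first in both genotypes, at 479 ± 120 normalized counts per kilobase in the wild type and 262 ± 99.3 in the knockout (SD, n = 3 each). In the wild type CACNB1 (232 ± 31.8), CACNG6 (180 ± 57.8), CACNA1C (118 ± 9.16), CACNA1G (67.7 ± 10.1) and CACNA1D (44.7 ± 2.39) followed among the genes described. CACNB1 and CACNG6 overlapped there, as did CACNG6 and CACNA1C, and the other neighbours did not. In the knockout the order after CACNB2 was CACNA1C (161 ± 46.2), CACNB1 (152 ± 8.28), CACNG6 (a mean of 86.0), CACNA1H (49.8 ± 27.3), CACNA1D (47.4 ± 7.90) and CACNB3 (43.7 ± 14.6). Of these neighbours, CACNB1 and CACNG6 did not overlap, and the others did. CACNA1G, at rank 5 in the wild type, was at rank 20 in the knockout, with 2.36 ± 2.40. The order depends on the length used, and ranks by another length were not computed. The mean transcript has 6584 bases for CACNA1G and 5473 for CACNA1C, beside 8138 and 13433 for the longest.

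Several of these genes lie in clusters. Positions are from GENCODE 29 on GRCh38, the build that the submitters' processing notes name. SCN10A (38696807 to 38816217) and SCN11A (38845769 to 38950561) lie side by side on chromosome 3. SCN11A was at 6.57 ± 4.77 normalized counts in the wild type and 6.79 ± 6.01 in the knockout (SD, n = 3 each). SCN2B (chromosome 11, 118161951 to 118176673, minus strand) lies next to SCN4B (118133377 to 118152888). SCN3A, SCN2A, SCN1A, SCN9A and SCN7A lie on chromosome 2 between 165087522 and 166494326. SCN1A and SCN3A were under the filter. Of SCN2A, SCN9A and SCN7A, SCN9A alone had non-overlapping groups, beside 33.4% of all genes tested. CACNA1G lies on chromosome 17 (50561068 to 50627474, plus strand), CACNA1H on chromosome 16 (1153121 to 1221772, plus strand) and CACNA1S on chromosome 1 (201039512 to 201112566, minus strand). Exons of CACNA1D and CHDH on the opposite strand share 1399 bases. CHDH averaged 467 normalized counts, so without stated strand the CACNA1D level is uncertain.

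Sharing of sequence between relatives was small. Of the 31-base words in a channel gene's transcripts, a median of 2.25% over the 38 genes also occurred in another gene's transcripts, with 13.8% for SCN3A at the top. It was 3.73% for CACNA1G, 0.389% for CACNA1S, 2.31% for SCN2B and 11.1% for SCN9A. Words shared with another channel gene reached 8.30% for SCN3A and 4.37% for SCN9A, so reads of these 2 genes could have been split with relatives. For CACNB2 the share was 11.7%, mostly with AL450384.2. Exons of CACNB4 share 2168 bases with AC068547.1 on the same strand, and those of CACNA2D2 share 606 bases with CYB561D2 on the opposite strand, so these levels are uncertain too.

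Proteins that bind, place or regulate these channels were read from a list of 41 genes found in the table, of which 35 were tested. In the knockout 5 rose and 3 fell, which is 22.9% called beside 12.8% of all genes, with a median log2 fold change of -0.094. FGF12 and FGF13, intracellular relatives of growth factors that bind the tail of sodium channels and modulate their inactivation, fell as SCN2B did. FGF12 had 1036, 944 and 852 normalized counts in the wild type and 78.8, 82.5 and 130 in the knockout, a log2 fold change of -3.30 (SE 0.29, limma adjusted p = 0.000562). FGF13 went from 4365 ± 384 to 1907 ± 343 (SD, n = 3 each), with a log2 change of -1.21 (limma adjusted p = 0.00918; 0.0537 when wild-type replicate 1 was dropped). The third tested member of that family, FGF11, was at 486 ± 147 and 471 ± 90.3 (SD, n = 3 each). Other sodium channel partners did not pass, among them ANK3, GPD1L and RANGRF.

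CACHD1, a relative of alpha2delta that raises calcium channel currents, fell from 2270, 1094 and 2689 normalized counts to 153, 250 and 194, a log2 fold change of -3.27 (SE 0.38, limma adjusted p = 0.00178). BIN1, which organises T-tubule membrane and delivers L-type channels there, rose from 418 ± 37.7 to 1421 ± 224 (SD, n = 3 each), a log2 change of 1.76 (limma adjusted p = 0.00237). GEM, a small GTPase that binds beta subunits and inhibits L-type channels, rose from 185 ± 43.7 to 765 ± 242 (SD, n = 3 each; limma adjusted p = 0.00863). RRAD, a related GTPase, was at 4906 ± 1009 and 4718 ± 569 (SD, n = 3 each; limma adjusted p = 0.926).

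STAC, an adaptor that binds L-type channels, CAMK2D, the main cardiac calmodulin kinase, and UNC80, a subunit of the sodium leak channel, rose as well. Their log2 fold changes were 1.23, 1.42 and 1.53 (limma adjusted p = 0.0406, 0.0273 and 0.0219). Dropping 1 of the 6 libraries at a time, STAC and CAMK2D passed in 1 fit and UNC80 in 2, with adjusted p-values up to 0.135, 0.105 and 0.0904. STAC and CAMK2D passed only without knockout replicate 1, and UNC80 only without knockout replicate 1 or 2. With equal totals STAC had an adjusted p of 0.141 and CAMK2D 0.116. NALCN, the pore that UNC80 serves, was under the filter, with 0 to 22.7 normalized counts in the wild type and 0.889 to 6.36 in the knockout.

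**Figure D4:**
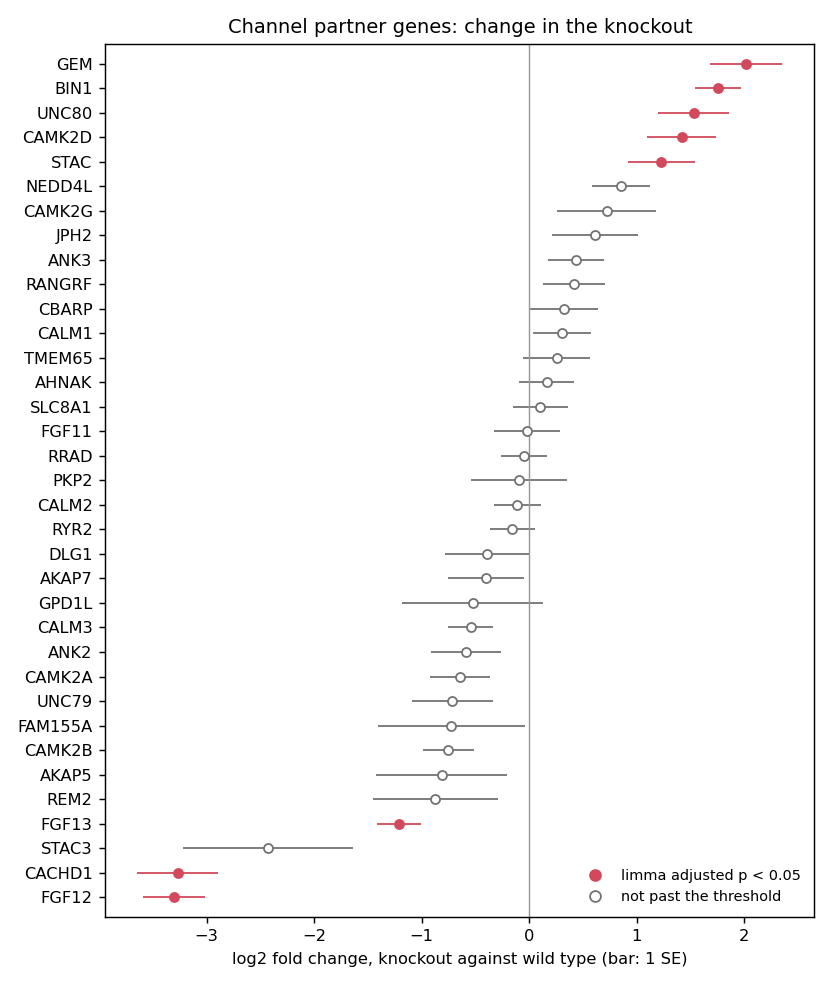
Log2 fold change of the 35 tested partner genes, knockout against wild type, with 1 SE from limma, sorted by size. Filled points are the 5 genes that rose (GEM, BIN1, UNC80, CAMK2D, STAC) and the 3 that fell (FGF12, CACHD1, FGF13).

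Markers of muscle chamber type moved in the same comparison as CACNA1G, SCN2B and FGF12. The ventricular markers MYL2, IRX4 and HEY2 fell by 6.68, 3.09 and 4.57 on the log2 scale (limma adjusted p = 0.000281, 0.000280 and 0.000177). MYH7 went the other way, higher in every knockout library, at a log2 fold change of 1.42 that did not pass (limma adjusted p = 0.0639). None of the 4 was at 0 throughout a genotype, and with MYH7 their summed level was 75037 to 162935 in the wild type and 178302 to 292617 in the knockout. Of 7 atrial markers NPPA fell by 2.38 and NR2F2 rose by 3.59 (limma adjusted p = 0.00463 and 0.00818), with sums of 638886 to 1048864 and 945257 to 2503611, and NR2F1 had 0 reads in the wild type. Estimates were above 0 for 6 of the 7, and groups stood apart for 4 higher and 1 lower, beside 16.2% and 17.2% of all genes. MYL7 averaged 541523 in the wild type and 1481018 in the knockout and did not pass (limma adjusted p = 0.114). The part of these markers in the channel results was not tested.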

How the data were processed

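The deposited table holds 1 normalized count per gene and library, a signal in which, as its steps show, gene counts were divided by 1 factor per library before the authors deposited it. Per the submitters' processing notes, bcl2fastq 2.19, kallisto 0.44.0, DESeq2 1.28.1 and GRCh38 were used. Their roles, the annotation and the use of strand are not given in the sources used here. Column-purified, DNase-treated RNA was made into cDNA with a Clontech Ultra Low kit and into libraries with NexteraXT, per the labels' protocols. All values (100%) were whole multiples of 1 step per library within 0.001 reads times the square root of the read count, so reads were recovered.

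In R 4.3.3, limma 3.58.1 (lmFit, eBayes with trend) was run on log2(value + 1) of the 15536 genes with a mean of at least 10, over all 6 libraries with no covariate, with Benjamini-Hochberg adjustment and a threshold of 0.05. Fold changes of low genes on that scale depend on the pseudocount and can be smaller or, where single libraries are near 0, larger than those of the count models. Alternatives were edgeR 4.0.16 (1864 genes called, beside 1982 with limma) and DESeq2 1.42.0, both on recovered reads, pseudocounts of 0.1 and 10, other filters and scalings, the replicate block and leaving out each library. The scripts were tested on simulated data. Levels per kilobase used the longest GENCODE 29 transcript. No pair of replicates was 1 library deposited again: their chi-square divided by its degrees of freedom was 18.9 to 363. Floors cover counting error only.

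The members and lists were chosen with earlier results of these data known. Named by rule are STK25, every channel gene, partner genes past the threshold and at most 3 such markers a list, by level. Other genes were named after their values were seen. Some genes that the rule or the lists would take are not reported here; they stayed in the fit over all genes and out of every count of channel genes, partners and markers, and no sum or share over a whole sodium channel family was computed.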

Additional observations from a re-analysis of the deposited data

How the results depend on the processing

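Values for single genes were counted per gene and setting, for the tested channel genes and for partners and markers that limma called. Those partners and markers could lose a call but not gain one. Under the other settings 621 values kept direction and call, 30 lost the call, 7 gained it and 3 changed sign. With 1 library left out 274 kept both, 51 lost the call, 1 gained it and 10 changed sign. The cause was not tested. Genes called, 1982 with limma, were 798 with the replicate block, 3210 with DESeq2 and 796 to 2181 with 1 library left out. Channel genes called higher (1) were 0 at a mean of at least 50 and with the block, 2 without trend and with DESeq2, and 0 to 1 with 1 library left out. Channel genes called lower (2) were 1 with a pseudocount of 0.1 and at a mean of at least 50, 4 with equal totals, 5 with DESeq2 and 1 to 3 with 1 library left out. At a mean of at least 50, CACNA1S and SCN2B were under the filter and not tested, with means of 38.1 and 41.4 over the 6 libraries. Partners called higher (5) were 3 with equal totals, 2 with the block and 2 to 5 with 1 library left out, and partners called lower (3) were 5 with equal totals and 2 to 4. Equal totals moved the median log2 change of all genes from 0.0052 to -0.27. STK25 was at -1.12 with the block (limma adjusted p = 0.0684) and at -1.24 to -1.05 with 1 library left out, and the block also gave CACNA1S an adjusted p of 0.0578. Deviations of same-numbered replicates had correlations of -0.235, -0.400 and 0.169, and those of wild-type replicate 2 and knockout replicate 1 had 0.448. With 3 libraries per genotype these correlations cannot settle whether the numbers pair the samples. Estimates of channel genes that were not called changed sign: CACNA1A to -0.22 and CACNA1D to -0.21 with equal totals, and SCN2A to 0.037 with quantile normalization. With 1 library left out, ranges were -0.27 to 0.40 for CACNA1A, -0.0038 to 0.22 for CACNA1D, -1.68 to 0.18 for CACNA1F, -0.16 to 0.67 for CACNB4, -0.48 to 0.18 for SCN2A and -0.33 to 1.31 for SCN7A, 0.049 to 0.36 for the median of the tested channel genes, and -0.70 to 5.99 percentage points for the share of CACNA1C. Depth limits genes near 3 reads, such as SCN4B and CACNG4.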
